A study of Mus musculus with 7 samples.

Results

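Respiratory complex I (NADH:ubiquinone oxidoreductase) is followed here through the transcripts of 43 genes, out of 24035 genes counted in sorted mouse β-cells. The genes were taken by name: all symbols that begin with Ndufa, Ndufb, Ndufc, Ndufs or Ndufv and a number (36 genes), and all that begin with Ndufaf and a number (7 assembly factors), with at least 70 reads over the 7 libraries. Ndufa4l2 was the only one of 44 such symbols under that limit, with 0, 0 and 0 reads in the HFD libraries against 3, 0, 8 and 11 in the CD libraries. The choice used no difference between diets. Of the 36, Ndufa4 is described apart, because its product is now assigned to cytochrome c oxidase (complex IV), which leaves 35 complex I subunits. These are 7 core subunits, 9 accessory subunits of the matrix arm and 19 accessory subunits of the membrane arm.

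The libraries came from C57BL/6N mice that ate a high fat diet (HFD) for 2 days (replicates 2 to 4, n = 3 mice) or stayed on chow diet (CD; replicates 1 to 4, n = 4 mice). The study's methods give the C57BL/6NCrl substrain and an age of 12 weeks at the diet change, and neither group carried a transgene. Male mice are named for the 2-day diet in the study's results and both sexes in its general methods, and the sex of the sequenced mice is not stated apart from these. β-cells were separated from α-cells by flow cytometry with ZIGIR, a zinc-binding dye, and Ex4-Cy5, a fluorescent ligand of the GLP-1 receptor, and polyA RNA was sequenced.

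Total counts were 10559175 to 14391602 in the HFD libraries and 11145642 to 22557957 in the CD libraries. All 10 β-cell markers looked for were detected, and the insulin genes accounted for 29.9% to 30.9% of all counts in the HFD libraries against 27.7% to 29.0% in the CD libraries, with no overlap. The summed β-cell markers, which insulin dominates, did not overlap either, at 321340 to 334860 CPM (read counts over the library total scaled by TMM, times 1e+06) on HFD against 304820 to 316940 CPM on CD. Summed acinar markers (6 genes) varied from 0.549 to 1648 CPM in the HFD libraries and from 44.1 to 2065 CPM in the CD libraries, and endothelial and stromal markers came to at most 1.33 CPM. Ductal markers (4 genes) summed to 166 to 256 CPM on HFD against 186 to 224 CPM on CD. Summed macrophage markers, of which 4 of 5 had an entry, were 29.3 to 48.2 CPM on HFD against 45.7 to 68.5 CPM on CD. Markers of α-cells were 188 to 261 CPM on HFD against 111 to 377 CPM on CD. For δ-cells they were 370.3 to 595 CPM on HFD against 377 to 1095 CPM on CD, and for PP-cells 146 to 178 CPM on HFD against 129.8 to 377 CPM on CD. The part of β-cell content and of other cells in the results was not tested. HFD replicate 3 stood apart: it lacked any read for 807 (8.55%) of the 9443 genes whose counts reached 50 in all the others, a share that was at most 0.0118% elsewhere. Results that rest on this library are given with and without it.

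Complex I takes electrons from NADH in the mitochondrial matrix, passes them along a flavin and a chain of iron-sulfur clusters to ubiquinone, and couples this to the pumping of protons across the inner membrane. The matrix arm holds the redox centres and the membrane arm holds the pumps, whose core is encoded by mitochondrial DNA. Accessory subunits surround both arms, and assembly factors join the modules without being part of the finished enzyme. In β-cells, NADH from glucose breakdown is oxidised here, and the ATP that oxidative phosphorylation makes closes K-ATP channels and so starts insulin secretion. The genes of the mitochondrial genome and Ndufaf8 and Ndufb1-ps were not analysed here.

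The genes lie on 16 chromosomes, and what they share in sequence was looked for in the RefSeq promoter windows of build GRCm38.p6, which run from 250 bases before to 50 bases after the transcription start and were found for 38 of the 43. YY1, a zinc finger factor of many mitochondrial genes, has the motif AAGATGGC. On either strand it was in the windows of 7 complex I genes (18.4%), against 3.19% of 27025 genes. The 7 sites are shown because they share a position: each is on the gene's own strand, with its first base 22 to 38 bases after the first transcribed base. Among all 862 genes with the motif, 32.5% had it on that strand after the start. Each sequence below is 30 bases read 5′ to 3′ on the gene's strand, and the capitals mark the motif.
Ndufa9, chr6:126849097-126849126, minus strand: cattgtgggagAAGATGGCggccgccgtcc
Ndufc1, chr3:51408915-51408944, minus strand: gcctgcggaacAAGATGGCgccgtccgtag
Ndufs6, chr13:73328433-73328462, minus strand: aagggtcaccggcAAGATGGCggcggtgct
Ndufs4, chr13:114388045-114388074, minus strand: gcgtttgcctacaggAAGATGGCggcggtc
Ndufb8, chr19:44555393-44555422, minus strand: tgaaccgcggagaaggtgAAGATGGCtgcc
Ndufs7, chr10:80249462-80249491, plus strand: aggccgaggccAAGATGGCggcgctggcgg
Ndufa3, chr7:3617384-3617413, plus strand: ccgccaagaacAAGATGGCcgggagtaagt
The ATG inside these capitals is the annotated start codon in 7 of the 7 genes (GENCODE M21), so in these genes the motif letters are also the first bases of the coding sequence. The count of matches therefore cannot tell a binding site from a start codon context.

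NRF1, nuclear respiratory factor 1, was searched for on both strands as GCGCA, any base, then GCGC. It was in the windows of 9 complex I genes (23.7%), against 5.19% of all genes. They were Ndufa5, Ndufa6, Ndufa8, Ndufa11, Ndufb4, Ndufs5 and Ndufs6 among the subunits and Ndufaf4 and Ndufaf5 among the assembly factors. The 5 sites shown are of genes whose values are given further on, with the motif in capitals.
Ndufs6, chr13:73328479-73328508, minus strand: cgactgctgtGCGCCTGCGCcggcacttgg
Ndufs5, chr4:123718265-123718294, minus strand: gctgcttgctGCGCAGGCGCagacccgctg
Ndufa11, chr17:56717692-56717721, plus strand: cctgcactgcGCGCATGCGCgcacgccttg
Ndufaf4, chr4:24897960-24897989, plus strand: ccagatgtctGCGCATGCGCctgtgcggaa
Ndufaf5, chr2:140170652-140170681, plus strand: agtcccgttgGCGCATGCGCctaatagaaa
Ndufs6 was the only gene with both motifs. The ETS core CCGGAAG, bound by GABP, was in 5 windows (13.2%, against 9.93% of all genes), and the ERR half-site AAGGTCA was in 3 (7.9%, against 5.38%). In the genes with sites of more than one motif (Ndufs6, Ndufs5 and Ndufb4) the sites did not overlap. The shares of all genes are over the 27025 genes with a window, expressed in β-cells or not, and were not matched for base content. A match describes the sequence and not binding.

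Levels on CD were compared per kb of transcript. Subunit transcripts had a median of 49.2 CPM per kb (mean of 4 CD libraries), and 25 of the 35 lay between 30 and 130. Assembly factors ranged from 4.03 to 11.8 CPM per kb with a median of 5.62. Of the 35 subunits, 34 had a higher level than the highest assembly factor, Ndufaf3. Core subunits had a median of 35.9, matrix arm accessory subunits 43.7 and membrane arm accessory subunits 63.0 CPM per kb.

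Among the most abundant per kb were Ndufa7, an accessory subunit of the matrix arm, with 139.7 CPM per kb on HFD and 138 on CD, and Ndufc2, in the membrane arm, with 133 on HFD and 122 on CD. The levels of Ndufa7 and Ndufc2 overlapped between libraries and their order was not distinct. The lowest were Ndufaf1 (1.48 CPM per kb on HFD, 4.03 on CD), Ndufb4 (4.47 on HFD, 4.41 on CD) and Ndufaf4 (2.78 on HFD, 4.66 on CD). Ndufb4 was the only subunit at the level of the assembly factors, and 390 bases of its transcript are identical to the processed pseudogene Ndufb4c, which has no count of its own in the table analysed.

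**Figure D1:**
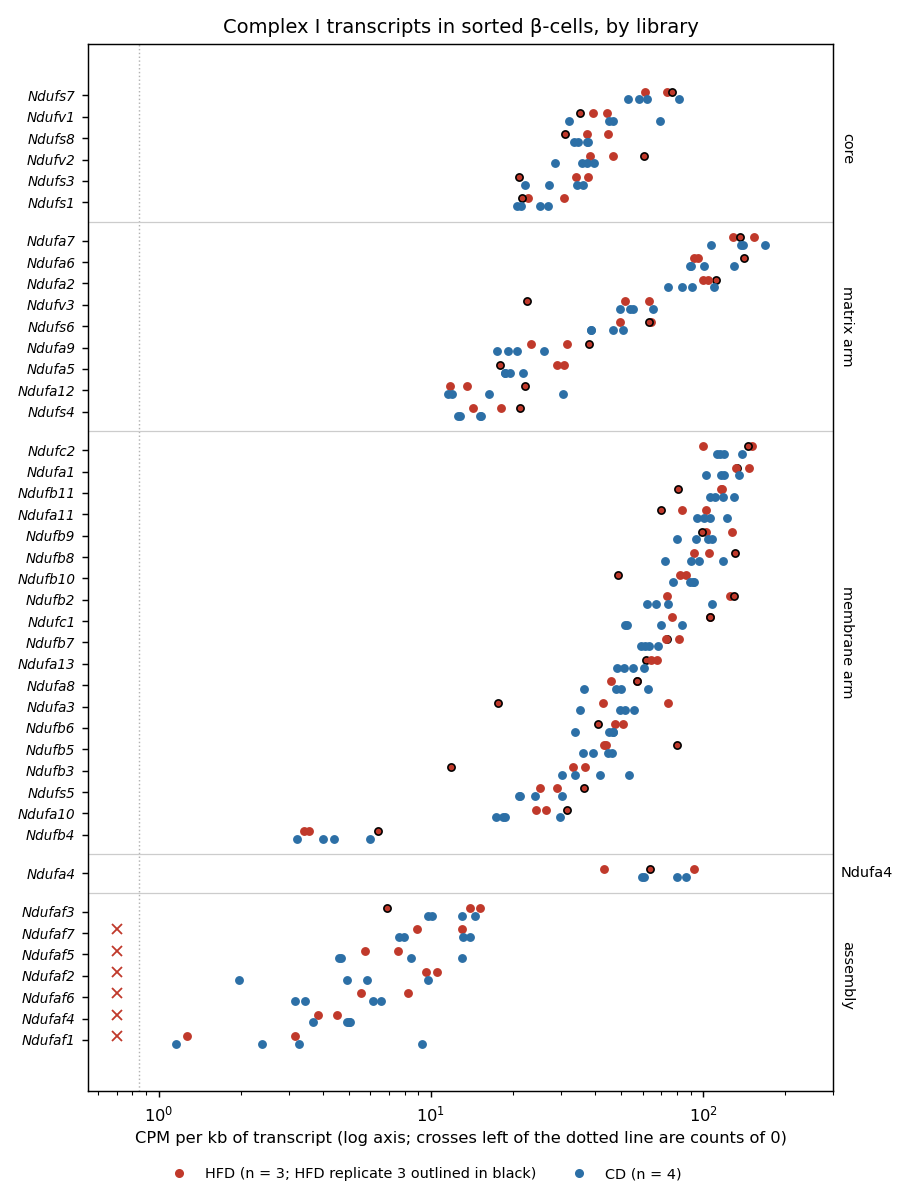
Level of 42 of the 43 genes per library, in CPM per kb of transcript on a log axis, with HFD libraries (red, n = 3) above CD libraries (blue, n = 4) for each gene and counts of 0 as crosses. By their CD means, subunits other than Ndufb4 lie to the right of the 7 assembly factors, and the crosses are all from HFD replicate 3.

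The comparison of HFD with CD asks whether 2 days of the diet were accompanied by a change in these transcripts. No complex I gene passed the test on a genome-wide scale: 0 of 43 had an adjusted p under 0.05 by edgeR's quasi-likelihood test with Benjamini-Hochberg adjustment over 12354 genes (lowest adjusted p = 0.854), and neither did any other gene (0.0%). At an unadjusted p under 0.05, 2 of the 43 were higher on HFD, Ndufa9 and Ndufv2, and 0 were lower. The first number was 0 to 5 with 1 library left out (0 without CD replicate 1 or 2, 1 without CD replicate 4 or HFD replicate 2 or 3, and 5 without CD replicate 3). Over all tested genes, 2.86% were higher and 2.91% lower at that limit, and 2 of 43 is close to the first of these shares. DESeq2 had 5 of the 43 higher (background 5.26%) and 0 lower (background 5.42%), with 0 past adjustment (lowest adjusted p = 0.289), while it called 1.11% of all genes after adjustment. By edgeR's other tests, the likelihood ratio and the exact test, the calls after adjustment were 0.186% and 0.0809% of genes, with 0 of the 43 among them. Because the samples are bulk RNA of sorted cells, less RNA per cell and fewer cells of a type cannot be told apart.

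By sign alone, 28 of the 43 genes (65.1%) had a log2 fold change above 0, where 42.1% of all tested genes did. The median log2 fold change was 0.10 for the 43 genes and −0.08 for all tested genes. Among the subunits, 26 of 35 were above 0 (median 0.12), made up of 5 of 7 core subunits (median 0.07), 7 of 9 matrix arm subunits (median 0.23) and 14 of 19 membrane arm subunits (median 0.18). Among the assembly factors it was 2 of 7 (median −0.54). Without HFD replicate 3, 31 of 43 genes were above 0 with a median of 0.15 (45.2% of all tested genes were above 0), 27 of 35 subunits with a median of 0.17, and 4 of 7 assembly factors with a median of 0.02. These are descriptions and were not tested as a list. The shares of all tested genes were not matched for level. In HFD replicate 3, 2808 of the 12354 tested genes had 0 counts, against 6 of the 43 genes and 0 of the 35 subunits. The median of the 43 genes was 0.04 without CD replicate 1 or without HFD replicate 4, and 0.19 without CD replicate 3. That of all tested genes was −0.07, −0.13 and −0.06 in these fits, in that order.

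**Figure D2:**
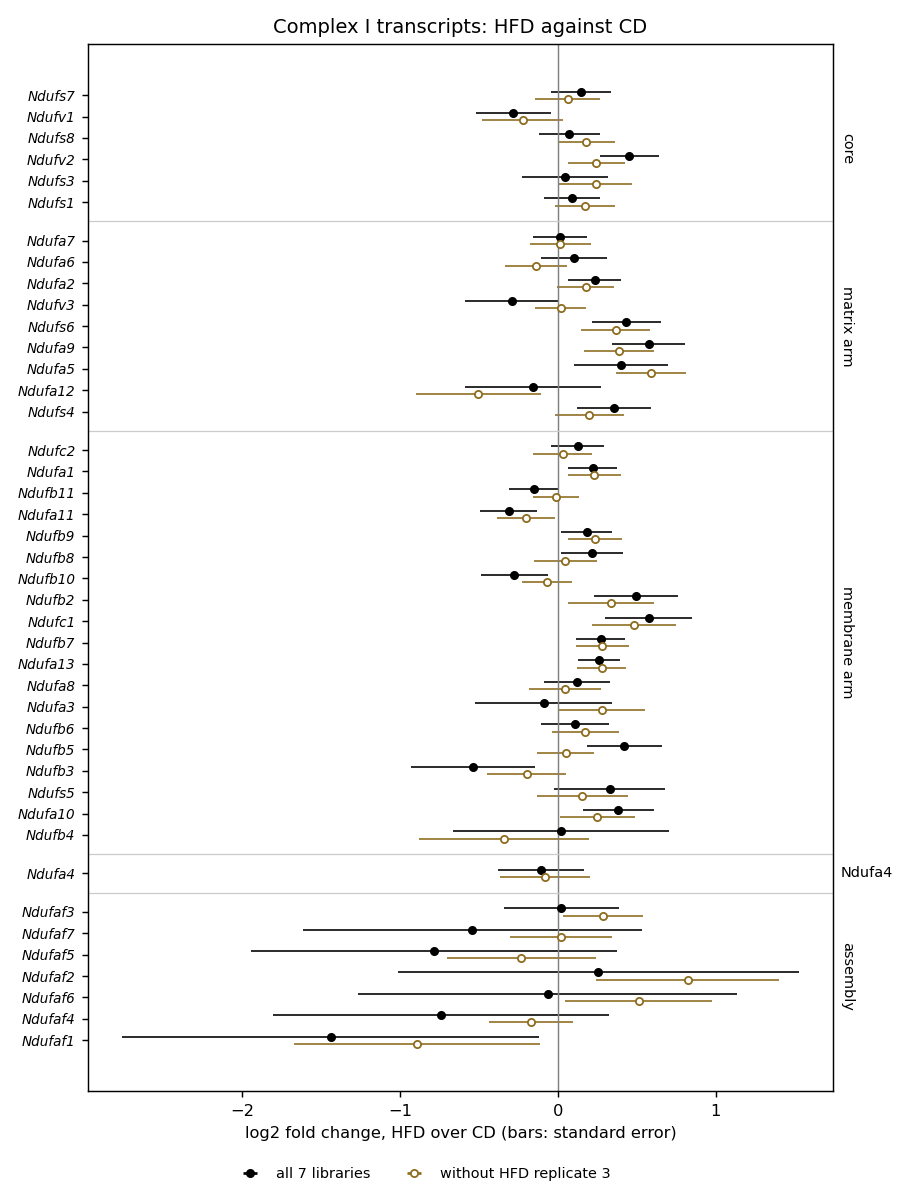
Log2 fold change of HFD over CD with its standard error for 42 of the 43 genes, grouped by role, from all 7 libraries (black) and without HFD replicate 3 (open). Most subunits lie right of 0 with standard errors that reach near or across it, and the black bars of 6 of the 7 assembly factors are wide.

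Summed over the 35 subunits, the transcripts came to 2058, 1896 and 1985 CPM in HFD replicates 2 to 4 (1980 ± 81.0, SD) and to 1782, 1788, 2052 and 1813 CPM in CD replicates 1 to 4 (1859 ± 129). All 3 HFD libraries were above CD replicates 1, 2 and 4, and CD replicate 3, the deepest library, was as high as the highest HFD library. The log2 ratio of the means was 0.09, and 0.12 without HFD replicate 3. It was 0.14 without CD replicate 3 and 0.06 without HFD replicate 2, the ends of the range with 1 library left out. The accessory subunits of the matrix arm summed to 417, 423 and 422 CPM on HFD against 369, 386, 421 and 380 CPM on CD, and those of the membrane arm to 989, 948 and 943 CPM on HFD against 840, 854, 1004 and 844 CPM on CD.

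The sum hid a wider scatter in HFD replicate 3. Relative to the CD mean, the log2 levels of the 35 subunits had an SD of 0.66 in that library, against 0.28 and 0.27 in HFD replicates 2 and 4 and 0.18 to 0.25 in the CD libraries. It held the highest value of the 7 libraries for 11 subunits and the lowest for 10. The sign of the fold change differed without it for 7 of the 43 genes, 5 of them subunits.

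**Figure D3:**
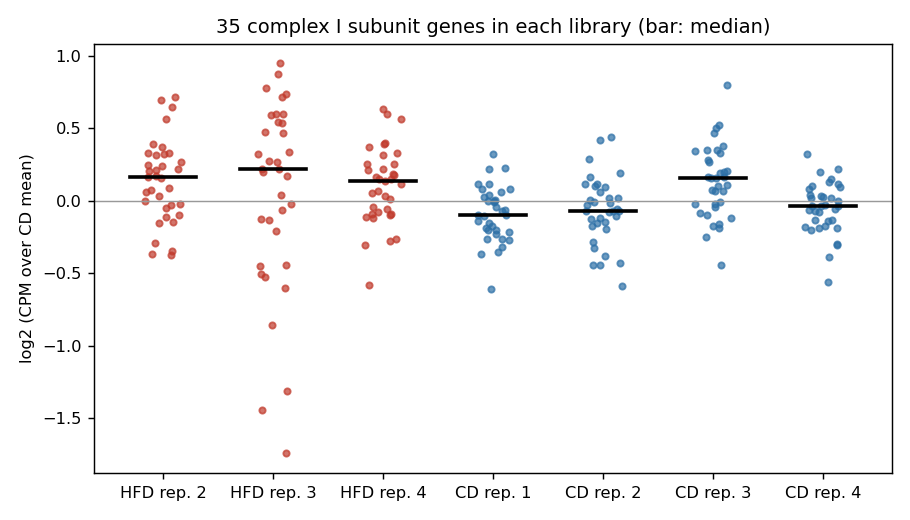
Log2 ratio of each of the 35 subunit transcripts to its CD mean in each library, HFD replicates 2 to 4 then CD replicates 1 to 4, with the median as a bar. The medians were 0.16, 0.22 and 0.14 on HFD against −0.10, −0.07, 0.16 and −0.04 on CD, and the points of HFD replicate 3 spread furthest.

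The 7 core subunits carry the flavin, the iron-sulfur clusters and most of the ubiquinone site. Ndufv2, which holds an iron-sulfur cluster next to the site of NADH oxidation, had 79.1, 103 and 65.2 CPM on HFD, against 63.8, 61.1, 67.4 and 48.6 CPM on CD. The log2 fold change of Ndufv2 was 0.45 ± 0.19 (standard error), with an adjusted p = 0.854 by the quasi-likelihood test. The groups overlapped, since HFD replicate 4 was below CD replicate 3, and HFD replicate 3 was highest. Without HFD replicate 3 the log2 fold change was 0.24. The gene lies on chromosome 17 from 66078638 to 66101559 (GRCm38, minus strand).

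Ndufv1, which binds NADH and the flavin, was the core subunit with the lowest fold change. It had 65.6, 58.8 and 73.9 CPM on HFD, against 75.1, 53.4, 116 and 77.3 CPM on CD, a log2 fold change of −0.28 (standard error 0.24). CD replicate 3 was far above the other CD libraries, and without it the log2 fold change was −0.06.

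A further 4 core subunits had log2 fold changes between 0.05 and 0.15. Without HFD replicate 3 they were 0.24 for Ndufs3, 0.18 for Ndufs8, 0.17 for Ndufs1 and 0.06 for Ndufs7, and the first 3 of these were below 0 without HFD replicate 4. Ndufs7, which holds the last iron-sulfur cluster before ubiquinone, had 55.8, 58.5 and 46.4 CPM on HFD against 40.3, 44.2, 61.7 and 47.0 CPM on CD. Ndufs8, which holds a pair of iron-sulfur clusters, had 36.8, 30.5 and 43.9 CPM on HFD against 33.0, 36.8, 34.2 and 37.3 CPM on CD. In both genes the groups overlapped. Ndufs3, which carries no redox centre, had 39.5, 22.1 and 35.7 CPM on HFD against 28.5, 23.1, 37.8 and 36.1 CPM on CD, with HFD replicates both highest and lowest. Ndufs1, the largest subunit of the matrix arm, had 60.6, 57.5 and 82.1 CPM on HFD against 55.0, 67.0, 71.9 and 56.9 CPM on CD.

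Among the accessory subunits of the matrix arm, Ndufa9, which lies near the ubiquinone site and binds a nucleotide cofactor, had 33.7, 55.3 and 45.7 CPM on HFD, against 29.9, 27.7, 25.3 and 37.6 CPM on CD. At 0.58 ± 0.23 (standard error), its log2 fold change was the most positive of the 43 genes and nearly the same as that of Ndufc1 (0.57), with an adjusted p = 0.854 by the quasi-likelihood test. Of the HFD libraries, 2 were above every CD library and HFD replicate 2 was below CD replicate 4. Without HFD replicate 3 the log2 fold change was 0.39, and Ndufaf2, Ndufa5, Ndufaf6 and Ndufc1 were above it. Its gene spans 126821721 to 126849136 on the minus strand of chromosome 6 (GRCm38).

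Ndufs6, a zinc-binding subunit, had 36.7, 36.0 and 28.0 CPM on HFD against 28.9, 22.0, 22.0 and 26.6 CPM on CD. For Ndufs6 the log2 fold change was 0.43 (standard error 0.22), and only CD replicate 1 reached into the HFD range. Ndufs6 has a processed pseudogene, Ndufs6b, that matches 348 bases of its transcript at 96.6% identity. Ndufa5, another matrix arm subunit, had 27.02, 15.7 and 25.5 CPM on HFD against 16.4, 16.3, 17.1 and 19.1 CPM on CD. HFD replicates 2 and 4 were above every CD library and HFD replicate 3 below every one, so the log2 fold change was 0.40 (standard error 0.30) with it and 0.59 (standard error 0.22) without it, where the quasi-likelihood test gave an adjusted p = 0.662. It was the only one of the 43 genes at an unadjusted p under 0.05 without that library, where 2.99% of tested genes were higher and 3.82% lower at that limit, and 0 of the 43 passed adjustment, where 0.0156% of genes did.

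Of the 43 genes, 2 had all HFD libraries above all CD libraries, and 0 had them all below. These were Ndufa13 and Ndufb7, accessory subunits of the membrane arm. Over all tested genes, 4.03% had all HFD libraries above and 5.37% all below, and 2 of 43 is close to the first of these shares. Ndufa13, also known as GRIM-19, had 84.7, 77.2 and 80.4 CPM on HFD against 60.5, 64.2, 75.6 and 69.1 CPM on CD, a log2 fold change of 0.26 (standard error 0.14). Ndufb7, which faces the intermembrane space, had 50.8, 45.8 and 45.5 CPM on HFD against 42.4, 39.3, 37.0 and 38.2 CPM on CD, a log2 fold change of 0.27 (standard error 0.15). In both, the fold change was about as large without HFD replicate 3, at 0.28 for each gene. Without that library, 4 of the 43 genes had HFD above every CD library, where 9.71% of tested genes did, and Ndufa5 and Ndufb6 were the further ones. None of the 43 had HFD below every CD library, where 8.24% did.

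Ndufa13 lies on chromosome 8 from 69894180 to 69902558 and overlaps Yjefn3 on its strand and Tssk6 on the other. Ndufb7 lies on chromosome 8 from 83566671 to 83571626 and overlaps no annotated gene.

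Ndufc1, a small membrane arm subunit, had 33.4, 33.3 and 24.2 CPM on HFD against 16.3, 22.0, 26.5 and 16.5 CPM on CD, a log2 fold change of 0.57 (standard error 0.28). Only CD replicate 3 lay within the HFD range. Ndufb2 had 57.4, 58.9 and 33.6 CPM on HFD against 30.5, 28.2, 49.0 and 33.9 CPM on CD, a log2 fold change of 0.50 (standard error 0.27), with HFD replicate 4 at the level of CD replicate 4. Ndufb5 had 47.3, 86.6 and 46.6 CPM on HFD against 39.0, 48.1, 50.05 and 42.5 CPM on CD. Its log2 fold change of 0.42 (standard error 0.24) was 0.05 without HFD replicate 3, which stood above the other 6 libraries.

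The genes of lowest p below 0 did not separate the groups either. Ndufa11, which sits where the membrane arm meets complex III in respiratory supercomplexes, had 45.5, 38.1 and 56.0 CPM on HFD against 57.6, 51.9, 66.7 and 54.9 CPM on CD. For Ndufa11 the log2 fold change was −0.31 (standard error 0.18), and HFD replicate 4 lay within the CD range. It was −0.20 without HFD replicate 3 and −0.49 without HFD replicate 4. Ndufb3 had 28.1, 9.06 and 25.3 CPM on HFD against 25.8, 40.6, 31.8 and 23.2 CPM on CD, a log2 fold change of −0.54 (standard error 0.39) that was −0.20 without HFD replicate 3. Ndufb10 had 63.5, 35.5 and 60.4 CPM on HFD against 68.0, 65.3, 67.5 and 56.7 CPM on CD, a log2 fold change of −0.28 (standard error 0.21) that was −0.07 without HFD replicate 3. In both genes that library was the lowest of the 7.

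Ndufb4 had 3.32, 6.22 and 3.47 CPM on HFD against 4.28, 5.80, 3.14 and 3.90 CPM on CD, with overlapping groups. Ndufs5 had 206, 210 and 191 counts on HFD against 189, 124, 248 and 178 on CD, and its processed pseudogene BC002163 had 214, 210 and 194 counts on HFD against 196, 124, 256 and 187 on CD. The entries match to within 9 counts in each library, and the 2 transcripts are 99.4% identical over 319 bases, so the level of Ndufs5 is uncertain. Of the 43 genes, 7 have a processed pseudogene copy of this kind, 16 overlap a gene on the other strand and 6 one on the same strand. The use of strand in counting is not given in the sources used here.

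Ndufa4, the complex IV protein named for complex I, had 26.4, 38.8 and 56.7 CPM on HFD against 52.9, 37.0, 36.3 and 49.1 CPM on CD. Its log2 fold change was −0.11 (standard error 0.27), and HFD held both the highest and the lowest library.

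The assembly factors were marked by HFD replicate 3. Of the 7, 6 had 0 counts there, which allows up to 0.284 CPM (3 counts), while the same genes had 15 to 545 counts in each other library. The exception was Ndufaf3, with 112 counts. Low level and zeros went together in this library: of 4057 genes at 3 to 20 CPM on CD, 34.26% were at 0 in it, against at most 0.86% in any other library. Among the 43 genes, 11 were in that range, and the 6 at 0 were all assembly factors. None of the 17 complex I genes at 20 to 50 CPM was at 0, where 3.84% of genes were.

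Ndufaf1, a chaperone of the membrane arm that acts with Ecsit and Acad9, had 1.85, 0 and 4.58 CPM on HFD against 1.68, 3.48, 13.5 and 4.75 CPM on CD. CD replicate 3 was highest, and the groups overlapped. Its log2 fold change was −1.44 (standard error 1.32), and −0.89 without HFD replicate 3. Ndufaf2, a paralog of Ndufa12 that binds a late intermediate, had 6.50, 0 and 7.15 CPM on HFD against 6.63, 1.34, 3.95 and 3.33 CPM on CD, with a fold change on the log2 scale of 0.26 (standard error 1.27), or 0.82 without HFD replicate 3.

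Ndufaf3 and Ndufaf4 act together early in the building of the matrix arm. Ndufaf3 had 22.5, 10.3 and 20.8 CPM on HFD against 14.5, 21.5, 14.98 and 19.4 CPM on CD, with a fold change on the log2 scale of 0.02 (standard error 0.37), or 0.29 without HFD replicate 3. Ndufaf4 had 14.0, 0 and 16.4 CPM on HFD against 18.1, 18.3, 17.9 and 13.4 CPM on CD, and its log2 fold change of −0.74 (standard error 1.06) was −0.17 without HFD replicate 3. HFD replicates 2 and 4 lay within the CD range for Ndufaf4 and, in part, above it for Ndufaf3.

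Ndufaf5 and Ndufaf7 are modifying enzymes, the first a hydroxylase of Ndufs7 and the second a methyltransferase. Ndufaf5 had 8.86, 0 and 6.66 CPM on HFD against 5.37, 9.82, 15.1 and 5.46 CPM on CD, and its log2 fold change of −0.79 (standard error 1.16) was −0.23 without HFD replicate 3. Ndufaf7 had 22.7, 0 and 15.6 CPM on HFD against 13.3, 22.9, 24.4 and 13.9 CPM on CD, and its log2 fold change of −0.54 (standard error 1.08) was 0.02 without HFD replicate 3. For both, HFD replicates 2 and 4 lay inside the CD range.

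Ndufaf6, needed early for the membrane arm, had 5.98, 0 and 8.95 CPM on HFD against 3.44, 6.61, 3.72 and 7.09 CPM on CD. Its log2 fold change was −0.06 (standard error 1.20), and 0.51 without HFD replicate 3. The sum of the 7 factors was 57.6 ± 41.0 CPM on HFD against 77.0 ± 14.3 CPM on CD (SD, n = 3 and 4), a log2 ratio of −0.42 that was 0.08 without HFD replicate 3. The sign of the difference in this sum thus changed with that library.

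**Figure D4:**
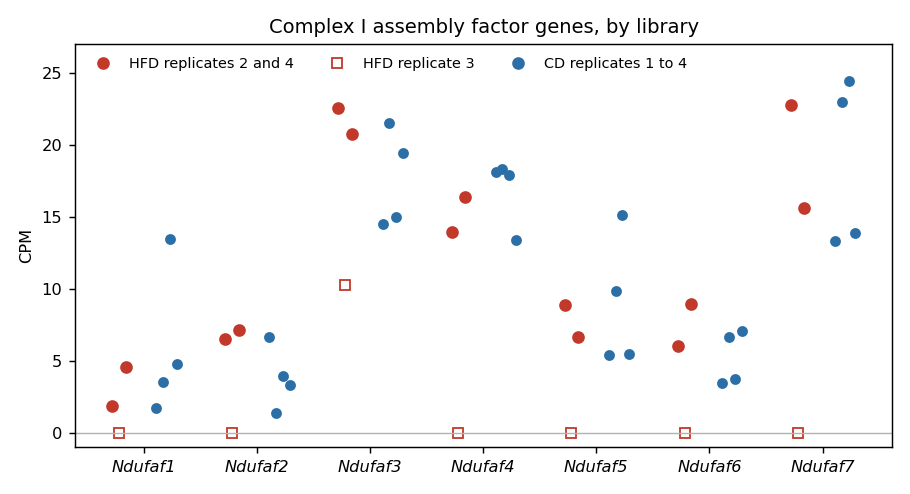
CPM of the 7 assembly factors, with HFD replicates 2 and 4 as filled red circles, HFD replicate 3 as open squares and the 4 CD libraries as blue circles. The squares are at 0 for all but Ndufaf3, while the filled circles of each gene overlap the CD range or lie next to it.

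Of 11 genes of complex I or its assembly with other names, 3 were above 0 and 8 below (median log2 fold change −0.07), with 0 at an unadjusted p under 0.05. Apart from Ndufab1 they do not encode subunits of the finished enzyme. These others were Acad9, Ecsit, Timmdc1, Tmem126b, Tmem186, Foxred1, Nubpl, Tmem70, Tmem261 and Atp5sl. Without HFD replicate 3, 6 were above 0 and 5 below (median 0.02). Ndufab1, the mitochondrial acyl carrier protein bound in both arms, had 7.46, 0 and 6.18 CPM on HFD against 4.53, 7.94, 3.99 and 6.17 CPM on CD, with HFD replicate 3 again at 0. Timmdc1 and Tmem186 were also at 0 in that library. For comparison, 8 of 10 complex III genes (median 0.08), 9 of 11 complex IV genes (median 0.20) and 12 of 14 ATP synthase genes (median 0.13) were above 0, and none passed adjustment.

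By promoter motif, the 7 genes with the YY1 letters had a median log2 fold change of 0.35, with 6 above 0. These were Ndufa9, Ndufc1, Ndufs6, Ndufs4, Ndufb8 and Ndufs7, and Ndufa3 was at −0.09. Without HFD replicate 3 the median was 0.28 and 7 were above 0. All 7 are subunits, and of the 35 subunits 26 were above 0 (median 0.12), or 27 (median 0.17) without that library. Fold changes of genes outside complex I with these letters are not given here. The 9 genes with the NRF1 letters had a median of 0.10, with 6 above 0, and of −0.14 without HFD replicate 3, with 4 above 0. They include the assembly factors Ndufaf4 and Ndufaf5, which had 0 counts in HFD replicate 3. The 3 genes with the ERR letters had a median of 0.33, close to that of YY1, with 3 above 0, and of 0.15 without HFD replicate 3, with 2 above 0. These medians are the values of Ndufs5 (standard error 0.35 with all libraries), whose level is uncertain. The others were Ndufb2 and Ndufb4, and Ndufb4 was at 0.02 (standard error 0.69). The 5 with the ETS letters had a median of 0.07, with 4 above 0, and of 0.18 without HFD replicate 3. The windows were scanned with these fold changes known, and the difference between motif groups was not tested.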

How the data were processed

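RNA of FACS-sorted β-cells from 3 HFD and 4 CD mice was sequenced from stranded mRNA libraries, and each library is a separate mouse. The values deposited by the authors are raw counts, 1 whole number per gene symbol and library, not normalized. Submitters' notes list mm10 as build and edgeR as tool. How reads were aligned, and whether counting used strand, is not given in the sources used here. Of 24062 entries, 27 were dates where a symbol should stand (0.155% of counts or less) and were left out. All 7 sample columns were used (0 unused).

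Genes passing filterByExpr (12354, all 43 complex I genes among them) were scaled by TMM and tested with glmQLFit and glmQLFTest of edgeR 4.0.16 (R 4.3.3), HFD against CD, two-sided, with Benjamini-Hochberg adjustment over the whole table. CPM are TMM-scaled, and log2 fold changes are HFD over CD. The fit was tested on simulated data, with changes larger than those of the 43 genes and no library lacking reads like HFD replicate 3. The power for small changes was not tested. Alternatives used limma 3.58.1, DESeq2 1.42.0, other size factors and filters, each library left out, a replicate block, and loess trends on transcript length or GC content (span 0.5). Lengths and coordinates are from GENCODE M21 (GRCm38, counted from 1), with 43 of 43 symbols matched. Per-kb levels use the APPRIS principal transcript. Copies are blastn 2.17.0 matches of at least 95% identity over at least 150 bases and 30% of the transcript. Promoter windows are from RefSeq. Python 3.11.15 and matplotlib 3.10.9 were used.

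Named are the core subunits (1 gene that the rule covers is not reported here), the 7 assembly factors, the 8 genes of lowest p above 0 and 4 below, those whose groups do not overlap, the highest and the 3 lowest per kb, and Ndufa4, Ndufa4l2 and Ndufab1. Ndufa3, Ndufa5, Ndufa10, Ndufb6, Ndufb8, Ndufs4, Ndufs5 and the genes listed by motif were named after their values were seen. The members, lists, motifs and tests were chosen with earlier results of these data known. Intervals and limits from counts of 0 cover counting error only.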

Additional observations from a re-analysis of the deposited data

Results flagged for a closer look

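In 4 of 44 sets of CD values looked at (the 43 genes and the subunit sum), 1 of the 4 libraries lay far from the rest, where chance gives about 1 in 20. Ndufa10, an accessory subunit of the membrane arm, had 60.3 CPM in CD replicate 3 and 34.9, 37.3 and 37.8 CPM in the other CD libraries. The summed CPM of the 35 subunits was 2052 in CD replicate 3 and 1782, 1788 and 1813 in the others. Ndufaf4 had 13.4 CPM in CD replicate 4 and 17.9, 18.1 and 18.3 CPM in the others. Ndufb6 had 22.2 CPM in CD replicate 1 and 29.8, 30.7 and 30.8 CPM in the others. The HFD group, with 3 libraries, was not looked at in this way.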

How the results depend on the processing

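Across 22 alternatives, 0 of 43 genes passed an adjusted p of 0.05 (lowest 0.289, from DESeq2). The sign of the 12 genes of lowest p was kept in all 264 values, but these genes were picked by p in the same data. Of all 43 genes, 27 had the same sign in every fit with 1 library left out, 19 above 0 and 8 below. The number higher at an unadjusted p under 0.05, 2 in the analysis reported, was 5 with DESeq2, 4 with upper-quartile factors, 4 with limma-voom and quality weights, 1 with limma-voom, 1 with the length trend removed, and 0 to 5 when 1 library was left out (0 without CD replicate 1 or 2, 5 without CD replicate 3). The number lower was 0, and 0 to 1 when 1 library was left out (Ndufa11, in the fit that lacks HFD replicate 4). Over the 43 genes the median log2 value of HFD over CD ranged from 0.041 to 0.19 with 1 library left out. Over all tested genes it ranged from −0.14 to −0.036 in these fits. Deviations of same-numbered libraries correlated at 0.025, 0.004 and 0.082. HFD replicates 2 and 4 correlated best with their own number, and HFD replicate 3 with CD replicate 1 (0.021). These values are all small, so they cannot tell whether the replicate numbers pair the samples. With the replicate block, 375 of all tested genes were at an unadjusted p under 0.05, against 713 without it. Under the block the median of the 43 genes was 0.024, and 1 gene, Ndufv2, was higher at that limit. The median of all tested genes was −0.13 under the block, against −0.08 without it. With the block, the median of the 43 genes was −0.0090 once the length trend was removed too and 0.027 once the GC trend was, with 1 gene higher in each. In these fits the medians of all tested genes were −0.128 and −0.130. There is no HFD replicate 1 here, so under the block CD replicate 1 adds nothing to the comparison of diets. Leaving out CD replicate 1 without a block gave 474 genes at an unadjusted p under 0.05 and a median of 0.041 for the 43 genes. The cause of these moves was not tested. The number of the 43 genes above 0 was 21 to 32 over all alternatives (22 without HFD replicate 4), and that of the subunits 21 to 28. Among low genes, counts in HFD replicate 3 limit what can be said of the assembly factors.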
